A study of Mus musculus with 16 samples.

Results

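The 30 genes described here serve autophagy and the lysosome, the route by which a cell encloses worn proteins and organelles and breaks them down. They were taken by gene symbol from a list of names, and no threshold on a measured value was applied. All 30 were found among the 17737 genes of the deposited table, and all 30 passed the filter on low counts that left 13381 genes for testing. By role, 6 act in starting the autophagosome, 6 in the conjugation reactions that attach lipid to it, 5 are the ATG8 proteins that receive this lipid, 6 select cargo or mark mitochondria, 1 is a regulator of lysosomal genes and 6 are proteins of the lysosome itself.

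The RNA came from ventricles of male C57BL/6 mice, an inbred laboratory strain, and was measured by bulk sequencing of poly-A RNA. Mice 6 weeks old were put on NIA, UW, mNIA or laboratory chow and stayed on it for 6 months, with 4 animals on each diet and 1 library from each animal. NIA and UW are formulas made for primates, and mNIA is the NIA formula with its sucrose and fat set to the amounts in UW. Animals were assigned at random, the labels name no genetic change in any group, and the series title names ageing and fibrosis of the heart. Groups follow the sample titles and diet labels, whereas the library codes (MNC for NIA, NC for UW, UC for mNIA, CC for chow) do not spell the same diets, so which primate formula is which was not settled. The mean of the 3 formulas against chow does not depend on that.

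Autophagy begins when the ULK1 kinase complex and a lipid kinase built around Beclin 1 and VPS34 start a membrane sac. A conjugation system then couples ATG8 proteins to lipid in that sac, cargo receptors bind both the cargo and ATG8, and the closed vesicle fuses with a lysosome. In cardiac muscle the pathway is known for clearing damaged mitochondria, and loss of LAMP2 in people causes Danon disease, a cardiomyopathy with autophagic vacuoles. Much of the control of these proteins is after transcription, so RNA levels do not measure autophagic flux, which was not assayed here.

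Several libraries stood apart, more of them in NIA than in any other diet. Total counts ran from 2278250 to 63005490 in NIA, from 4880235 to 6583532 in UW, from 3870480 to 6544172 in mNIA and from 4263827 to 5953964 in chow. The largest of these totals was that of NIA 2. The limma sample weight, which is low for a library far from its diet's mean, was under 0.5 in NIA 1, NIA 4, mNIA 2 and Chow 3. In UW the lowest weight was 0.58. NIA 4, the library with fewest counts, also favoured short transcripts (Spearman rho of level with length -0.50 over 13260 genes). Of 10 cardiomyocyte markers 10 were measured, and none had a total of 0 over the 16 libraries. Their summed levels were 60910 to 141000 CPM in NIA, 62980 to 96150 in UW, 76800 to 119000 in mNIA and 66860 to 98290 in chow. Bulk values cannot tell fewer cells of a type from less RNA per cell. Many differences below move or turn when one of these libraries is left out. Values without them are given for the main counts and for many of the genes described at length.

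The lysosomal protease cathepsin D and the ATG8 protein LC3A had the highest RNA levels among the 30 genes. Levels are given as CPM, counts scaled to library size with TMM factors, and genes are compared per kilobase of transcript. Ctsd stood at 462.5 CPM per kb averaged over the 16 libraries (SD 108), Map1lc3a at 297.6 (SD 98.6) and Pink1, a kinase that marks depolarised mitochondria, at 231 (SD 40.1). Lamp1, a lysosomal membrane glycoprotein, stood at 208 (SD 45.2) and Sqstm1, the cargo receptor p62, at 180.5 (SD 43.5), so that Pink1, Lamp1 and Sqstm1 are neighbours whose levels lie within their spread. At the low end were Atg5 (7.29, SD 2.12), Atg12 (7.04, SD 2.3) and Atg4b (5.16, SD 0.817 CPM per kb), which encode conjugation enzymes and substrates. Together the 30 genes took 0.4215% to 0.5314% of all counts in NIA libraries, 0.5609% to 0.6295% in UW, 0.4611% to 0.5835% in mNIA and 0.3908% to 0.5971% in chow.

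The genes differed in how far they varied between animals of 1 diet. Becn1, which encodes Beclin 1, had a within-diet SD of 0.17 on the log2 scale, at the 2.38th percentile of all genes tested. Bnip3, a mitochondrial protein that recruits ATG8 proteins and is induced by low oxygen, had an SD of 0.67, at the 83.8th percentile. Its level spanned 9.40-fold from the lowest to the highest library. Chow 3 was the lowest of the 16 libraries for 18 of the 30 genes, and NIA 4 was the highest for 15. Over all genes tested, Chow 3 was lowest for 19.8% and NIA 4 was highest for 23.8%.

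**Figure D1:**
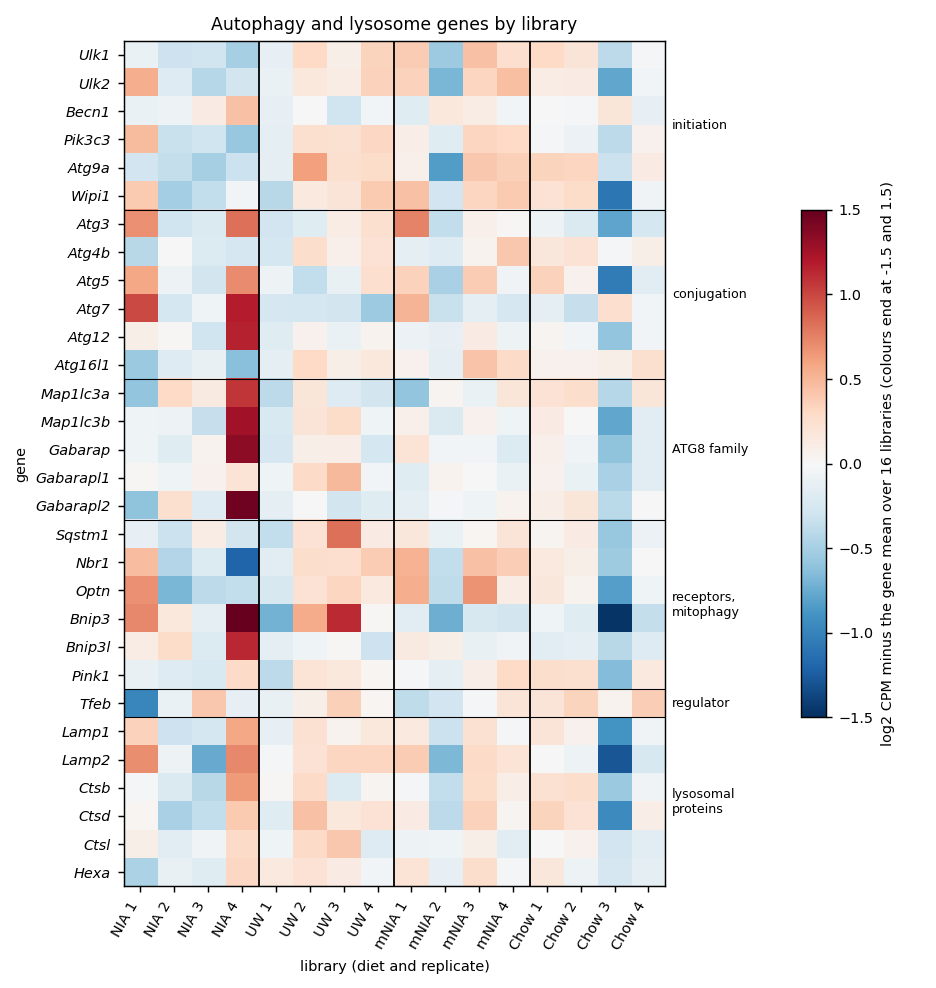
Heat map of the 30 genes (rows, grouped by role) in the 16 libraries (columns, grouped by diet), coloured by log2 CPM minus the gene's mean over all libraries. The NIA 4 column is high for most ATG8 genes and for Bnip3 and Bnip3l, and the Chow 3 column is low for most genes.

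Against chow, the 3 primate formulas together changed none of the 30 genes past the test: 0 of 30 passed an adjusted p of 0.05 with edgeR's quasi-likelihood test, beside 0% of the 13381 genes tested. By unadjusted p under 0.05 the count was 0 of 30, beside 2.19% of all genes, and DESeq2 (0% of all genes) and limma-voom (0.0299%) also called 0 of 30. The median log2 fold change of the 30 genes was 0.15, beside 0.00 over all genes, and 22 of 30 had a higher mean on the formulas, beside 50.4% of all genes. That median moved with 1 control animal: without Chow 3 it was 0.03, with 18 of 30 higher. The largest fitted differences were those of Bnip3 (0.72 ± 0.36, SE; 95% confidence interval -0.03 to 1.46), Lamp2 (0.51 ± 0.28) and Atg3 (0.46 ± 0.23), all with adjusted p = 0.938 by edgeR.

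Each formula against the same 4 chow hearts gave the same count. NIA, UW and mNIA each had 0 of 30 genes past the adjusted threshold of edgeR, beside 0%, 0% and 0.00747% of all genes. DESeq2 called 0 of 30 in NIA, UW and mNIA (0.949%, 0.00747% and 0% of all genes), as did limma-voom (0.232%, 0.0149% and 0.00747%). At an unadjusted p under 0.05 there were 5 of 30 for NIA (8.7% of all genes), 0 for UW (2.35%) and 0 for mNIA (1.38%). Without NIA 4 the count for NIA was 1 of 30, beside 3.73% of all genes. Genes with a higher mean than chow numbered 18 in NIA, 22 in UW and 25 in mNIA, beside 48.6%, 49.2% and 51% of all genes. Without Chow 3 these counts were 15, 15 and 16. For NIA the count was 8 without NIA 1 and NIA 4 and 7 under limma-voom with sample weights, so its direction depended on which libraries were weighed. The medians were 0.08, 0.15 and 0.12 for the 3 diets, and -0.01, 0.00 and 0.01 without Chow 3. The NIA median was -0.10 without NIA 1 and NIA 4 and -0.15 under limma-voom. The intervals show what 4 animals a diet left undecided: that of Becn1 ran from -0.26 to 0.46 for NIA, and that of Bnip3 from 0.35 to 2.13.

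**Figure D2:**
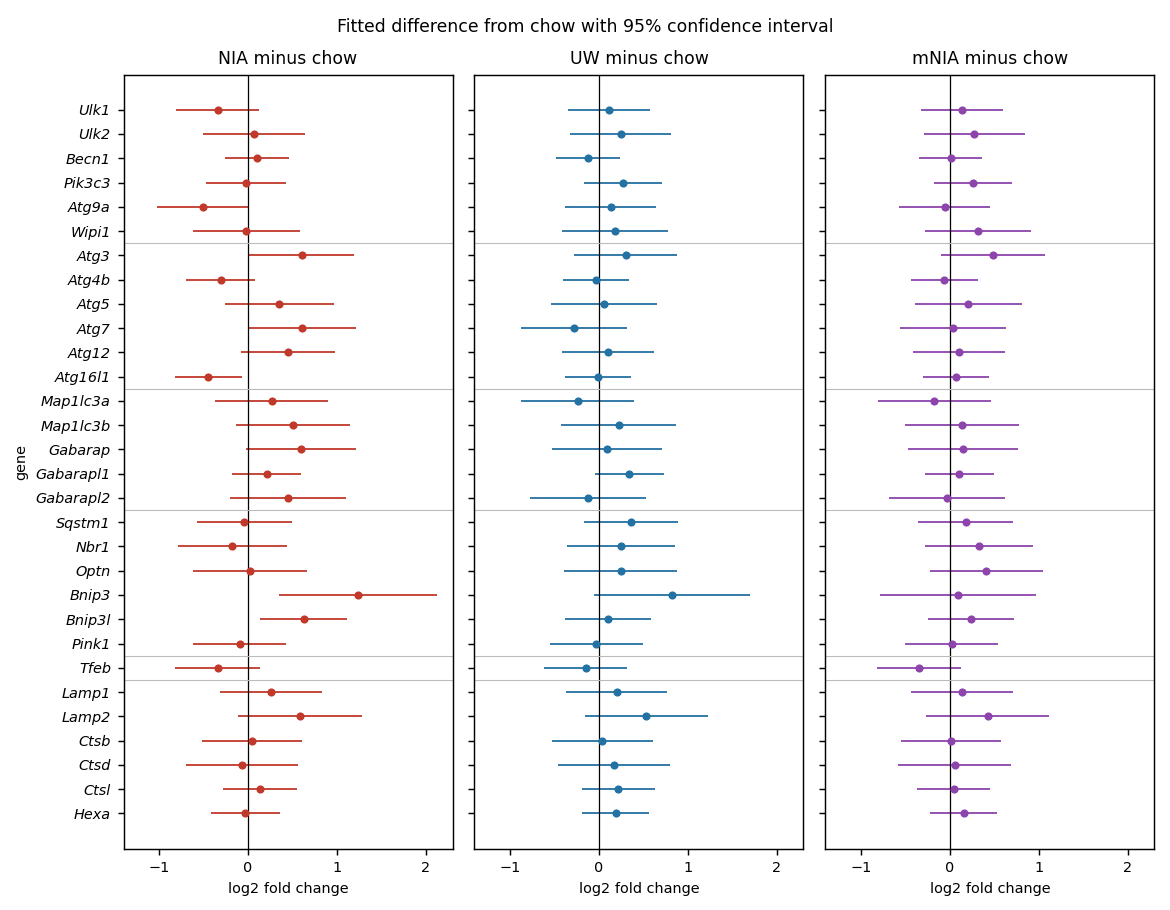
Fitted log2 fold change of each gene (points) with its 95% confidence interval (bars) for NIA, UW and mNIA minus chow, from the edgeR model, with lines between role groups. Most intervals include 0, the NIA intervals of Bnip3, Bnip3l, Atg3, Atg7 and Atg16l1 do not, and none of these passed the adjusted threshold.

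Among the genes that start the autophagosome, mean levels of Ulk1 and Atg9a were lower in NIA than in the other diets, by less than the test required. Ulk1 encodes the kinase that begins the process (chromosome 5, 110784489 to 110810082, mm10). It was at 73.4, 63.1, 63.6 and 55.5 CPM in NIA, at 72.4, 96.4, 83.7 and 98.9 in UW, at 102, 53.6, 107 and 93.8 in mNIA, and at 97, 89.9, 59.7 and 77.9 in chow. NIA hearts were close together, while mNIA 2 lay apart from the other three mNIA hearts and the NIA and chow ranges overlapped. The difference from chow was -0.34 ± 0.22 for NIA (adjusted p = 0.691, edgeR), 0.11 ± 0.22 for UW and 0.14 ± 0.22 for mNIA. Without Chow 3 these were -0.46, -0.01 and 0.02. With the trend of level with transcript length removed, the NIA difference was -0.16.

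Atg9a encodes the membrane protein that brings lipid to the growing sac (chromosome 1, 75180861 to 75192011). It was at 55.8, 53.5, 48.5 and 54.8 CPM in NIA, at 61.5, 105, 80.6 and 83.1 in UW, at 72.2, 38.3, 90.7 and 87.9 in mNIA, and at 86.5, 85.4, 54.6 and 74.7 in chow. The 4 NIA hearts lay close together, and Chow 3 was the 1 chow heart inside their range. NIA minus chow was -0.51 ± 0.25 (adjusted p = 0.578, edgeR), and it stayed negative in each of the alternative fits, from -0.70 to -0.37. In the fit of all libraries the other members of this group were nearer to chow in NIA: Ulk2, a second ULK kinase, 0.06, Becn1 0.10, Pik3c3, the lipid kinase VPS34, -0.02 and Wipi1, a reader of the lipid that VPS34 makes, -0.02. Without NIA 1 the values were -0.16 for Ulk2, 0.20 for Becn1, -0.25 for Pik3c3 and -0.19 for Wipi1. For UW and mNIA, 5 of the 6 genes had higher means than chow in each, with medians of 0.16 and 0.20. Without Chow 3 they were 3 of 6 in UW and 5 of 6 in mNIA, with medians of 0.00 and 0.08.

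In the conjugation group, 3 of 6 genes reached an unadjusted p under 0.05 for NIA, as did 8.7% of all genes, and they did not go the same way. Atg7 encodes the activating enzyme of the system (chromosome 6, 114643097 to 114860615). It was at 62.5, 26.2, 30.1 and 71.1 CPM in NIA, at 26.4, 26.1, 25.9 and 21.4 in UW, at 44.6, 24.9, 28.6 and 26.2 in mNIA, and at 28.3, 24.6, 37.5 and 30.4 in chow. NIA 1 and NIA 4 were high and the other two NIA hearts lay inside the chow range. NIA minus chow was 0.61 ± 0.29 (adjusted p = 0.566, edgeR), and without NIA 1 and NIA 4 it was -0.11.

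The 2 high libraries were also those in which transcripts with long A or T runs took most counts. A stretch of 25 or more A, or of 25 or more T, marks such a gene, and these genes held 24.2% of the counts in NIA 1 and 26.6% in NIA 4, 14.2% in mNIA 1, 12.9% in Chow 3 and 6.10% to 12.1% in the rest. Atg7 is a gene of that kind, with a run of 29 bases in its principal transcript. Of the other 29 members, Atg9a has a run of 26 bases in a lesser transcript, so it also counts as such a gene, and the rest have none above 19. Atg9a was not high in these libraries. Its log2 CPM minus its mean was -0.29 in NIA 1 and -0.32 in NIA 4, against 0.989 and 1.175 for Atg7. The 4 libraries with the highest Atg7 were NIA 4, NIA 1, mNIA 1 and Chow 3, in the order of their share of counts on such genes. By the median gene the order differed. Over the 409 such genes tested, the median log2 CPM minus the gene's mean was 0.43 in NIA 1 and 0.23 in mNIA 1. It was 0.21 in NIA 4 and 0.14 in Chow 3. The part of either measure in the Atg7 values was not tested.

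**Figure D3:**
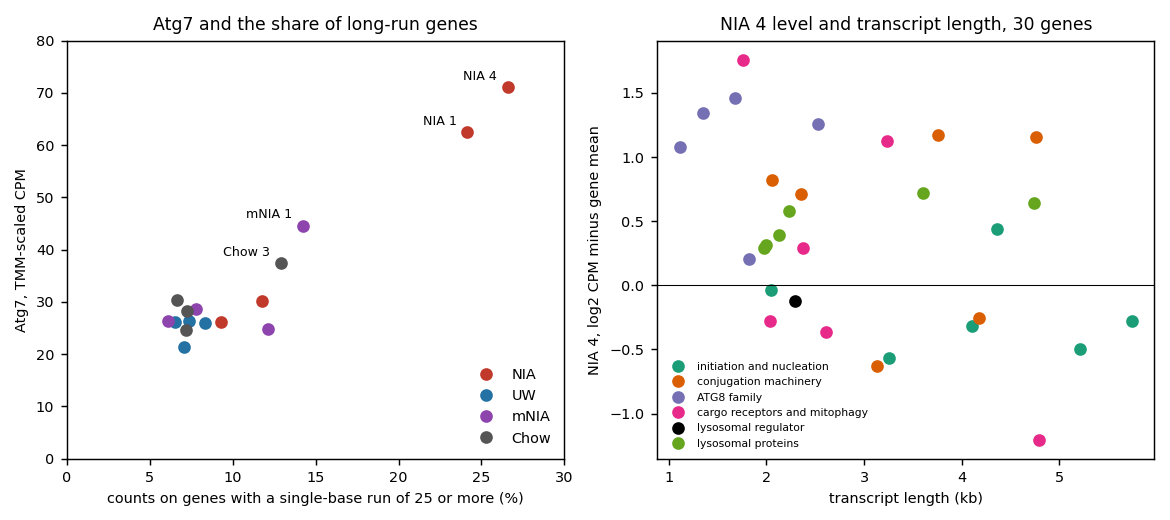
Left, Atg7 level (TMM-scaled CPM) against the percent of counts on genes whose transcripts hold 25 or more A or T in a row, 1 point per library, where NIA 1 and NIA 4 are high on both axes. Right, level of each of the 30 genes in NIA 4 (log2 CPM minus the gene's mean) against transcript length in kb, coloured by role, where 4 of 5 ATG8 genes, all under 3 kb, lie above 1.

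Atg3 encodes the enzyme that passes ATG8 to lipid (chromosome 16, 45158829 to 45188539). It was at 47.8, 24.1, 25.4 and 52.6 CPM in NIA, at 24.3, 26.1, 31.9 and 35.2 in UW, at 49.95, 22.9, 31.2 and 30.1 in mNIA, and at 28.1, 25.5, 17.1 and 24.7 in chow. The high libraries were again NIA 1, NIA 4 and mNIA 1, and the ranges of all diets overlapped. NIA minus chow was 0.60 ± 0.28 (adjusted p = 0.562, edgeR), and without NIA 1 and NIA 4 it was 0.04.

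Atg16l1, whose protein places the conjugation complex on the membrane (chromosome 1, 87756011 to 87792429), went the other way. It was at 20.1, 26.1, 27.4 and 19.2 CPM in NIA, at 26.8, 36.7, 31.5 and 33.1 in UW, at 31.0, 27.1, 40.1 and 36.5 in mNIA, and at 31.0, 31.2, 31.6 and 35.1 in chow. Every NIA heart lay below every chow heart, as was so for 1.91% of all genes tested. NIA minus chow was -0.45 ± 0.18 (interval -0.82 to -0.07, adjusted p = 0.487, edgeR). It was -0.28 without NIA 1 and NIA 4, a smaller difference with the same sign, and it was negative in each of the alternative fits. The remaining members, Atg4b, a protease that trims ATG8 proteins, Atg5 and Atg12, which are joined to each other, stood at -0.31, 0.35 and 0.45 in NIA against chow. Without NIA 4, Atg12 was at 0.07 and Atg5 at 0.19, and without NIA 1 and NIA 4 Atg5 was at -0.06.

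The ATG8 genes, whose products coat the autophagosome and bind cargo receptors, had means above chow in NIA for 5 of 5 members. For all but Gabarapl1, 1 animal carried most of that difference. Map1lc3b, the LC3B gene used widely as an autophagosome marker (chromosome 8, 121590438 to 121598761), was at 206, 205, 169.8 and 514 CPM in NIA, at 183, 245, 261 and 206 in UW, at 227, 185, 226 and 206 in mNIA, and at 234, 215, 125 and 193 in chow. Gabarap (chromosome 11, 69991370 to 69994950) was at 196, 180.4, 213 and 521 CPM in NIA, at 172, 217, 219.8 and 171 in UW, at 235, 199, 199 and 177 in mNIA, and at 216, 198, 135 and 182 in chow. Gabarapl2 was at 53.3, 96.0, 70.6 and 223 CPM in NIA, against 61.2 to 91.5 in chow. In each of these genes NIA 4 stood above all other libraries and the other three NIA hearts overlapped chow.

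The NIA minus chow differences were 0.51 ± 0.31 for Map1lc3b, 0.60 ± 0.30 for Gabarap, 0.45 ± 0.31 for Gabarapl2, 0.26 ± 0.30 for Map1lc3a and 0.21 ± 0.18 for Gabarapl1. Without NIA 4 they were 0.00 for Map1lc3b, 0.10 for Gabarap, -0.12 for Gabarapl2, -0.10 for Map1lc3a and 0.15 for Gabarapl1. The median ATG8 gene was 1.26 above its mean in NIA 4 on the log2 scale, and -0.07 to 0.06 in the other three NIA libraries. Beside this, cardiomyocyte markers were 0.85 above their means in NIA 4 and endothelial markers 0.91 below. With the transcript length trend removed, NIA minus chow was 0.55 for Map1lc3b, 0.35 for Gabarap and 0.32 for Gabarapl2. It was -0.06 for Map1lc3a and 0.17 for Gabarapl1. Beyond that fit the part of transcript length in the ATG8 values was not tested, nor was that of the marker levels. In UW and mNIA, 3 of 5 ATG8 genes had a higher mean than chow in each diet, with medians of 0.09 and 0.11. Without Chow 3 they were 2 of 5 in each, with medians of -0.03 and -0.02.

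**Figure D4:**
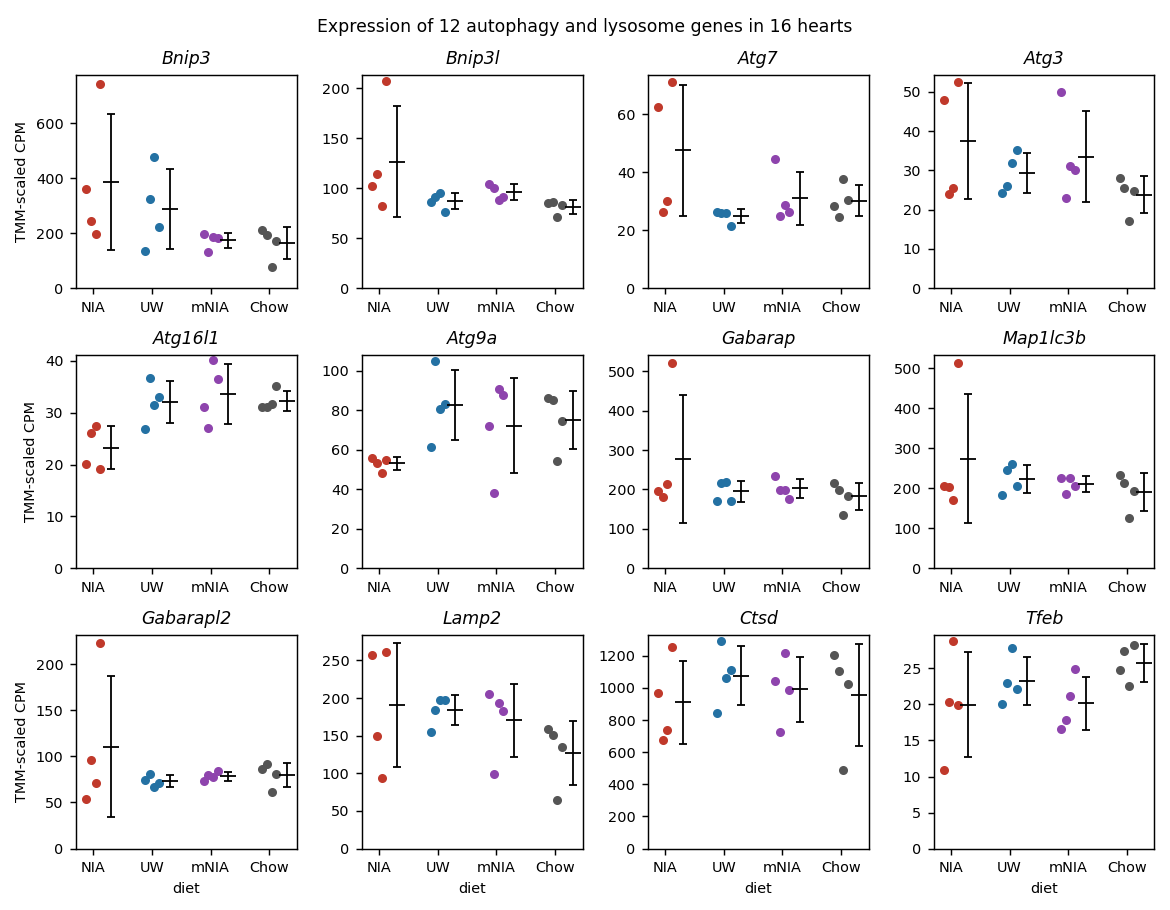
TMM-scaled CPM of 12 genes in each heart (points), with the mean and SD of each diet (horizontal and vertical bars, n = 4). Bnip3, the ATG8 genes and Atg7 are spread most widely in NIA, and Atg16l1 lies lower in every NIA heart than in every chow heart.

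Of the cargo receptors and mitophagy genes, Bnip3 showed the largest difference from chow of the 30. Bnip3 (chromosome 7, 138890836 to 138909507) was at 361, 246, 198 and 743 CPM in NIA, at 134, 322, 475 and 223 in UW, at 196, 132, 186 and 182 in mNIA, and at 210.4, 193, 79.1 and 171 in chow. NIA 4 and UW 3 were the highest libraries and Chow 3 the lowest, and each diet's range overlapped that of chow. NIA minus chow was 1.24 ± 0.42 (interval 0.35 to 2.13), a 2.36-fold difference with an unadjusted p of 0.00897 and an adjusted p of 0.439 by edgeR. It was 0.70 without NIA 4 and 0.42 without NIA 1 and NIA 4. UW minus chow was 0.82 ± 0.42 (adjusted p = 0.977, edgeR), and 0.47 without UW 3, while mNIA minus chow was 0.09 ± 0.42. Without Chow 3 the NIA, UW and mNIA differences were 1.01, 0.59 and -0.14.

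Bnip3l encodes NIX, a related mitophagy receptor (chromosome 14, 66985240 to 67008878). It was at 103, 114.5, 82.3 and 207 CPM in NIA, at 86.6, 90.9, 95.6 and 76.6 in UW, at 104, 100.7, 87.9 and 91.2 in mNIA, and at 85.1, 86.5, 71.1 and 82.9 in chow. NIA 4 was again the highest library. Every mNIA heart lay above every chow heart, as was so for 0.897% of all genes, by a fitted 0.24 ± 0.23 (adjusted p = 0.983, edgeR). NIA minus chow was 0.63 ± 0.23 (adjusted p = 0.47, edgeR) and 0.29 without NIA 4. Pink1, the kinase upstream of another mitophagy route, was at 524 ± 91.8 CPM in NIA, 546 ± 95.5 in UW, 566 ± 74.9 in mNIA and 558 ± 144 in chow (SD, n = 4).

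The receptors for tagged proteins, Sqstm1 (p62), Nbr1 and Optn, did not pass the adjusted threshold of edgeR in any diet. Sqstm1 averaged 326 ± 45.7 CPM in NIA, 430.3 ± 149.8 in UW, 379 ± 34.6 in mNIA and 335 ± 66.2 in chow. UW 3, at 636 CPM, was the highest library, and UW minus chow was 0.36 ± 0.25, or 0.11 without UW 3. Nbr1 was at 57.6 CPM in NIA 4, the lowest of the 16 libraries, whereas Bnip3 and the ATG8 genes Map1lc3a, Map1lc3b, Gabarap and Gabarapl2 were at their highest there. Optn was at 152, 58.8, 72.0 and 73.3 CPM in NIA, against 107, 98.3, 53.2 and 90.4 in chow, with NIA 1 highest. The fitted NIA minus chow differences were 0.02 for Optn and -0.17 for Nbr1. Without NIA 1 these were -0.33 and -0.47, and without NIA 4 Nbr1 was at 0.03.

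TFEB is the transcription factor known to raise lysosomal and autophagy genes, through elements centred on CACGTG. Tfeb (chromosome 17, 47737037 to 47792417) had the lowest mean on the formulas among the 30 genes relative to chow. It was at 10.9, 20.3, 28.8 and 19.9 CPM in NIA, at 20.1, 23.0, 27.8 and 22.1 in UW, at 16.7, 17.8, 21.2 and 24.9 in mNIA, and at 24.8, 27.5, 22.6 and 28.2 in chow. All 3 ranges overlapped chow. The 3 formulas minus chow gave -0.28 ± 0.18 (adjusted p = 0.938, edgeR), and each of the alternative fits kept that sign, from -0.36 to -0.20. NIA minus chow was -0.34, and -0.13 without NIA 1.

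RefSeq promoter sequences (build GRCm38.p6, from 250 bases before the start to 50 after it) were given for 23 of the 30 genes. CACGTG, which reads the same on both strands, occurred in 7 of these 23 (30.4%): Atg3, Atg5, Atg7, Bnip3, Ctsd, Ctsl and Lamp1. It occurred in 8.09% of all 27025 genes given a promoter there, a gene counting if any of its promoters held it. The longer TCACGTGA occurred in Atg3 and Ctsd (8.7%, against 1.12% of all such genes), and GTCACGTG or its reverse complement CACGTGAC, which overlap the other motifs, in Atg3, Atg7, Ctsd and Lamp1 (17.4%, against 2.55%). These matches describe the sequence and are not evidence of binding. Stretches from 5 of these genes are shown with 1 copy of CACGTG in capitals, read 5′ to 3′ along the gene and ending before the start site. Ctsd and Lamp1 are the lysosomal genes, Atg3 and Atg7 are the conjugation genes with GTCACGTG, and Bnip3 has the largest difference from chow.
Ctsd, chr7:142387893-142387952, minus strand: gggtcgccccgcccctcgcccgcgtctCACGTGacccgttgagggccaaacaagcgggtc
Lamp1, chr8:13159089-13159148, plus strand: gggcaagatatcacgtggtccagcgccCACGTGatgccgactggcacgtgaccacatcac
Atg3, chr16:45158731-45158790, plus strand: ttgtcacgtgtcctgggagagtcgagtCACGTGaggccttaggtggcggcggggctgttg
Atg7, chr6:114670937-114670996, plus strand: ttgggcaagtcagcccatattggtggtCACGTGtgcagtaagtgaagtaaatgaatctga
Bnip3, chr7:138909582-138909641, minus strand: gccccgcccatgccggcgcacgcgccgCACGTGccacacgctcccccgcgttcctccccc

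Lamp1 carried 4 copies of CACGTG before its start, and Atg3 and Ctsd carried 2 each, and some of these can be read in lower case. The RefSeq start used for Atg7 lies inside the gene span of the deposited table, not at its edge. The 7 genes with CACGTG had a median log2 fold change of 0.20 for the 3 formulas minus chow (0.05 to 0.72), 0.35 for NIA (-0.07 to 1.24), 0.20 for UW (-0.28 to 0.82) and 0.09 for mNIA (0.04 to 0.49). Without Chow 3 the 3-formula median was 0.07. The NIA median was 0.19 without NIA 4 and -0.06 without NIA 1 and NIA 4. None of the 7 passed the adjusted threshold of edgeR.

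The 6 lysosomal proteins had higher means on the 3 formulas for 6 of 6, with a median of 0.12, and for 4 of 6, with a median of 0.03, when Chow 3 was left out. Lamp2, a membrane protein needed for fusion with the autophagosome (chromosome X, 38399647 to 38456461), was at 258, 149.8, 94.0 and 262 CPM in NIA, at 155, 184, 198 and 198 in UW, at 206, 99.2, 193 and 183 in mNIA, and at 158, 150.3, 64.8 and 134 in chow. Chow 3 was the lowest library, and 3 of 4 UW hearts lay above every chow heart. The differences from chow were 0.58 ± 0.33 in NIA, 0.53 ± 0.33 in UW and 0.43 ± 0.33 in mNIA, with adjusted p of 0.628, 0.977 and 0.983 by edgeR. Without Chow 3 they were 0.36, 0.31 and 0.21, and without NIA 1 and NIA 4 the NIA difference was -0.07.

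Ctsd (chromosome 7, 142375910 to 142387828) was at 970.1, 679, 739.8 and 1252 CPM in NIA, at 843, 1291, 1063 and 1110 in UW, at 1042, 724, 1215 and 985 in mNIA, and at 1202, 1105, 492 and 1026 in chow. The range of each formula overlapped that of chow, and the differences were -0.07, 0.17 and 0.05 for NIA, UW and mNIA (SE 0.30 each). Without Chow 3 they were -0.29, -0.05 and -0.16, so that UW and mNIA changed sign. Lamp1 averaged 498 ± 153 CPM in NIA, 478 ± 49.7 in UW, 458 ± 73.9 in mNIA and 417 ± 121 in chow. For the cysteine proteases Ctsb and Ctsl, and for Hexa, a subunit of beta-hexosaminidase, the 3-formula differences were 0.03, 0.13 and 0.10, each smaller than its SE.

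**Figure D5:**
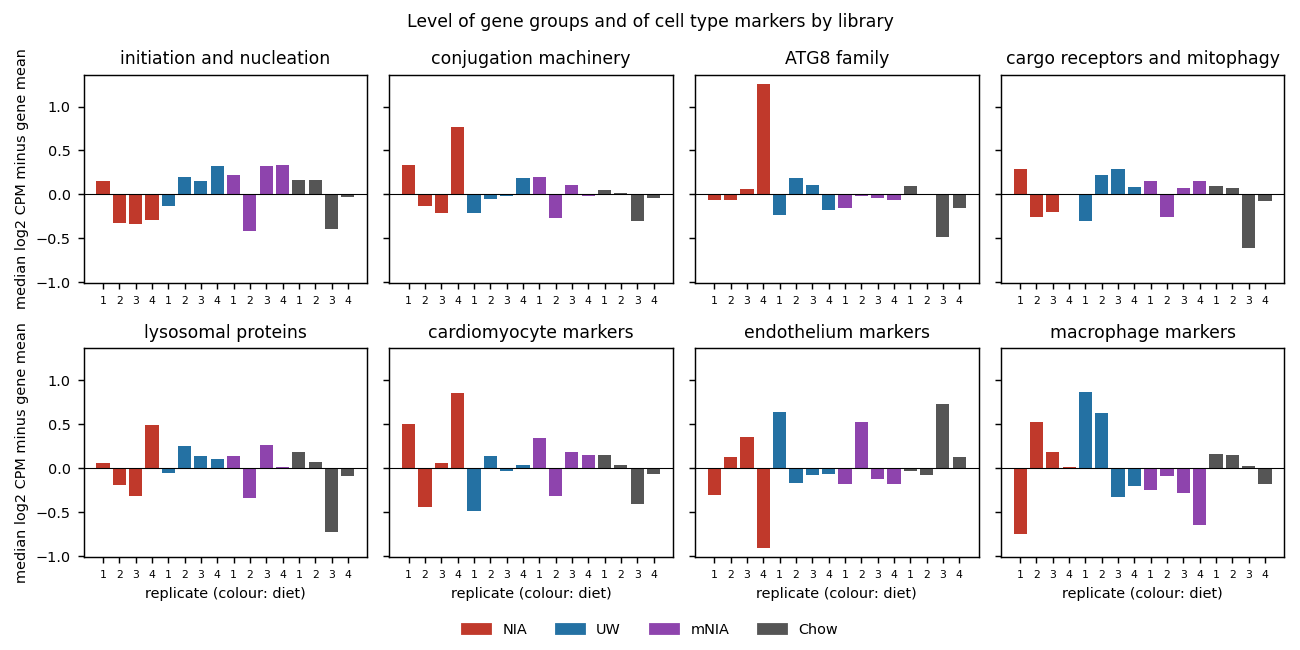
Median over each group's genes of log2 CPM minus the gene's mean, for 5 role groups and 3 lists of cell type markers, 1 bar per heart, in the order NIA, UW, mNIA and chow. NIA 4 has the high ATG8 bar (1.26) and the low endothelial bar (-0.91), and Chow 3 has the lowest bars for cargo receptors and lysosomal proteins.

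Set against each other, the formulas differed most where NIA was involved, again with 0 of 30 genes past the adjusted threshold of edgeR in UW minus NIA, mNIA minus NIA or mNIA minus UW (0% of all genes in each). At an unadjusted p under 0.05 there were 4 of 30 for UW minus NIA (13.9% of all genes), 3 for mNIA minus NIA (8.91%) and 0 for mNIA minus UW (0.986%). Means were higher for 16 of 30 genes in UW minus NIA (49.7% of all genes), 13 in mNIA minus NIA (49.1%) and 15 in mNIA minus UW (54.5%). Without NIA 4 they were 24 in UW minus NIA and 23 in mNIA minus NIA, and the medians were 0.20 and 0.10, against 0.07 and -0.06 with it. DESeq2 called 0 of 30 in these 3 comparisons, beside 2.8%, 0.0224% and 0.00747% of all genes. Atg9a was higher in every UW heart than in every NIA heart (0.64 ± 0.25, adjusted p = 0.259, edgeR), as were 3.29% of all genes. Atg7 had the smallest adjusted p of the 30 genes in any comparison, at -0.88 ± 0.29 for UW minus NIA (adjusted p = 0.2, edgeR), and it was -0.14 without NIA 1 and NIA 4.

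Bnip3 was lower in every mNIA heart than in every NIA heart, as were 0.882% of all genes. The 4 values were 132 to 196 CPM in mNIA and 198 to 743 in NIA, a difference of -1.15 ± 0.42 (adjusted p = 0.549, edgeR) that was -0.63 without NIA 4. Atg16l1 and Ulk1 were at 0.51 ± 0.18 and 0.48 ± 0.22 in mNIA minus NIA, with adjusted p of 0.549 and 0.559 by edgeR. The fit of limma-voom with sample weights, which gives NIA 1 and NIA 4 less say, called 7 of 30 genes higher in mNIA than in NIA, beside 15% of all genes. They were Ulk1 (0.60), Pik3c3 (0.53), Atg9a (0.63), Wipi1 (0.68), Atg16l1 (0.47), Nbr1 (0.67) and Optn (0.83), with adjusted p of 0.0258 to 0.0393 by limma-voom. For UW minus NIA it called 2 of 30, Pik3c3 (0.50) and Atg9a (0.72), beside 7.13% of all genes, and for mNIA minus UW 0 of 30, beside 0.00747%. With NIA 1, NIA 4, mNIA 2 and Chow 3 left out, edgeR called 9 of 30 genes in UW minus NIA (11.8% of all genes) and the same 9 in mNIA minus NIA (23.1%): Ulk1, Ulk2, Pik3c3, Atg9a, Wipi1, Nbr1, Optn, Lamp2 and Ctsd, all higher than in NIA by 0.46 to 0.99. That fit keeps only NIA 2 and NIA 3 for NIA. Libraries far from their diet's mean were the ones left out, which narrows the spread by construction. The shares of all genes, here and for limma-voom, count calls in both directions. With the transcript length trend removed from all libraries, mNIA minus NIA was 0.24 for Ulk1, -0.06 for Ulk2 and 0.20 for Pik3c3. It was 0.27 for Atg9a, 0.37 for Wipi1, 0.35 for Nbr1, 0.35 for Optn, -0.34 for Lamp2 and 0.16 for Ctsd. Before removal these were, in that order, 0.48, 0.21, 0.28, 0.45, 0.34, 0.50, 0.39, -0.16 and 0.12. Atg16l1, called by limma-voom but not in the fit without the 4 libraries, was at 0.43 after removal and 0.51 before. The part of length was not tested further. Without NIA 1, NIA 4, mNIA 2 and Chow 3, edgeR called 6 of 30 (9.97%) in the test for any diet difference. In the test for any difference among the 4 diets, edgeR called 0 of 30 (0% of all genes), DESeq2 0 (1.3%) and limma-voom 5 (15%), with edgeR's unadjusted p under 0.05 for Bnip3, Atg7 and Atg16l1 (6.88% of all genes).

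The wider pathway showed the same absence of calls. None of 35 other autophagy genes, 47 of 48 other lysosomal genes that could be tested, 16 subunits of the lysosomal proton pump or 25 upstream regulators passed edgeR's adjusted threshold in any comparison. Their medians for the 3 formulas minus chow were 0.07, -0.03, 0.05 and 0.04, with 23, 18, 11 and 16 genes higher. At an unadjusted p under 0.05 there were 0, 1, 0 and 0, beside 2.19% of all genes. For NIA minus chow there were 7 of 35, 2 of 47, 1 of 16 and 1 of 25 (8.7% of all genes), and for UW minus NIA 8 of 35, 7 of 47, 4 of 16 and 6 of 25 (13.9%). Naglu, a lysosomal glycosidase, had an unadjusted p of 0.0175 at -0.42 ± 0.16 (adjusted p = 0.938, edgeR), at 8.05 ± 1.46 CPM in NIA, 10.2 ± 1.39 in UW, 9.32 ± 1.68 in mNIA and 12.4 ± 1.41 in chow. Fuca1, the lysosomal fucosidase, averaged 191 ± 146 CPM in NIA, 50.8 ± 4.11 in UW, 75.1 ± 38.3 in mNIA and 53.7 ± 8.43 in chow. Its NIA spread was larger than its difference from chow.

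The remaining genes of these lists with the smallest p did not pass the test. For the 3 formulas minus chow, Atg2a, a lipid transfer protein, was at -0.30 ± 0.15 and Rubcn, a brake on autophagy, at -0.31 ± 0.18. The proton pump subunits Atp6v1d and Atp6v0c were at 0.39 ± 0.22 and -0.21 ± 0.21. Prkaa1, a catalytic subunit of the energy sensor AMPK, was at 0.26 ± 0.16, and Mlst8, a subunit of mTOR complexes, at -0.26 ± 0.19. Of the relatives of TFEB, Tfe3 was at -0.13 ± 0.16 and Mitf at 0.20 ± 0.19. All 8 had adjusted p = 0.938 by edgeR.

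Lysosomal genes are also abundant in macrophages, so markers of the other cell types were followed beside them. All 12 of 12 macrophage markers were measured, and none had a total of 0 over all libraries. Their summed levels were 217 to 487 CPM in NIA, 277 to 631 in UW, 232 to 332 in mNIA and 298 to 383 in chow. Endothelial markers (10 of 10) summed to 682 to 1847 CPM in NIA, 1381 to 2323 in UW, 1323 to 2159 in mNIA and 1452 to 2538 in chow. Fibroblast markers (8 of 8) summed to 1736 to 2330 CPM in NIA, 2001 to 3219 in UW, 1953 to 2379 in mNIA and 2106 to 2470 in chow. For the 3 formulas minus chow, 6 of 12 macrophage, 10 of 10 cardiomyocyte, 1 of 10 endothelial, 3 of 8 fibroblast, 1 of 8 smooth muscle and 0 of 7 erythrocyte markers had a higher mean, with 0 past the adjusted threshold of edgeR. The macrophage count differed by formula: against chow, NIA had 10 of 12 markers higher, UW had 12 and mNIA had 2. In mNIA minus UW, 0 of 12 macrophage markers were higher (median -0.66), beside 0 of the 6 lysosomal proteins (median -0.08), 8 of 47 other lysosomal genes (median -0.11) and 54.5% of all genes. In that comparison 1 of 8 fibroblast (median -0.21) and 3 of 10 endothelial markers (median -0.07) were higher. So were 6 of 8 smooth muscle (median 0.08), 10 of 10 cardiomyocyte (median 0.19) and 7 of 7 erythrocyte markers (median 0.39). In Chow 3, where most of the 30 genes were at their lowest, the median cardiomyocyte marker was 0.41 below its mean and the median endothelial marker 0.73 above it. The part of these differences in the values of the 30 genes was not tested.

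Some values could hold reads of other genes. Estimated counts of Wipi1 and Ctsb were not whole in 16 libraries, those of Becn1 in 15, of Map1lc3a and Gabarap in 14, of Sqstm1 in 13 and of Atg7 in 12, as happens when reads are divided between places. On the same strand, Gm49369 overlaps 34.4% of the exon bases of Ctsd and Gm29253 31.8% of those of Atg9a. Neither has deposited counts, and use of the strand would not separate their reads. Other same-strand overlaps were 6.09% or less. On the opposite strand, Cntd1 overlaps 43.9% of the exon bases of Becn1 and 1700101I11Rik 28.3% of those of Gabarapl1. Mrnip overlaps 17.3% of those of Sqstm1, Fdft1 12.8% of those of Ctsb and Tmem202 12.8% of those of Hexa. Gm47123, at 26.8% of Ctsl, and Gm45507, at 22.3% of Bnip3, have no deposited counts. The remaining opposite-strand overlaps were 9.31% or less. The libraries were stranded per the labels, but whether counting used the strand is not given in the sources used here.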

How the data were processed

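Bulk RNA-seq of lower ventricles was used (poly-A, stranded, single reads of 75 bases, RNA integrity above 7, 16 libraries, 1 animal each). The authors deposited expected counts per gene, unscaled, with BWA, DESeq2 and mm10 in the submitters' processing notes. The counting tool, gene models and versions are not given in the sources used here. The lowest gene total in the table is 10.

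Expected counts were rounded and tested with edgeR 4.0.16 (R 4.3.3): filterByExpr by diet (75.4% of genes kept), TMM, robust quasi-likelihood fit of 1 mean per diet, 2-sided tests, Benjamini-Hochberg adjustment over all tested genes, threshold 0.05. The biological coefficient of variation was 0.278. Values on the log2 scale used a prior count of 2. DESeq2 1.42.0, limma 3.58.1 voom with sample weights, other scalings and filters, a replicate block and left-out libraries were alternatives. Tests were checked on simulated counts with the real library sizes, the same spread for every gene and no outlying library. That check does not cover libraries that lie far from their diet's mean.

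Transcript lengths are GENCODE vM21 principal transcripts. Sequences are from RefSeq. All 30 members are named. From each of 4 pathway lists the 2 genes with the smallest p for the 3 formulas minus chow are named, plus Tfe3 and Mitf. The members and lists were chosen with earlier results of these data known. The p-values measure the spread between animals, and total counts limit precision most in NIA 4.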

Additional observations from a re-analysis of the deposited data

Results flagged for a closer look

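Within each diet, the highest or lowest of 4 hearts was compared with the rest by the gap to its nearest neighbour over the whole range, against Dixon's 95% critical value for 4 samples. Chance passes about 1 in 20 groups (5%) where values are independent and normally spread, and 13 of the 144 groups examined passed. These groups share libraries, and the role medians reuse the same genes, so the count is no test against chance.

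In NIA, values stood apart at the high end through NIA 4 or NIA 1. Map1lc3b in NIA 4 was at 514 CPM against 169.8 to 206 in the other NIA hearts (ratio 0.894). Gabarap in NIA 4 was at 521 CPM against 180.4 to 213 (ratio 0.905), and the median ATG8 gene was 1.26 above its mean there against -0.07 to 0.06 (ratio 0.908). Optn in NIA 1 was at 152 CPM against 58.8 to 73.3 (ratio 0.844). The median initiation gene in NIA 1 was at 0.15 against -0.34 to -0.30 (ratio 0.922).

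In chow, Chow 3 was the low library for Atg12 (21.4 CPM against 31.4 to 33.4, ratio 0.837), Map1lc3a (236 against 360 to 381, ratio 0.853) and Pink1 (344 against 598 to 650.3, ratio 0.83). Atg16l1 was high in Chow 4 (35.1 CPM against 31.0 to 31.6, ratio 0.861).

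In mNIA, mNIA 2 was low for Ulk2 (54.1 CPM against 108.5 to 119, ratio 0.84) and for the median initiation gene (-0.42 against 0.22 to 0.33, ratio 0.847), and mNIA 3 was high for Atg12 (35.4 CPM against 29.7 to 30.7, ratio 0.837). In UW, Atg7 was low in UW 4 (21.4 CPM against 25.9 to 26.4, ratio 0.9).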

How the results depend on the processing

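With edgeR, 0 of 30 genes passed in any comparison under RLE or upper-quartile scaling, no filter or the filter of 1 CPM in 4 libraries, without the 10 genes of highest count, with only the compared groups in the fit, or without any 1 library, and DESeq2 called 0 of 30. Calls appeared under limma-voom with sample weights: 2 for UW minus NIA (7.13% of all genes), 7 for mNIA minus NIA (15%, median 0.27) and 5 for any diet difference (15%). Without Chow 3, NIA 1, NIA 4 and mNIA 2 there were 9, 9 and 6 calls in those 3 comparisons (11.8%, 23.1% and 9.97% of all genes), and the medians were -0.24 for NIA minus chow and 0.31 for mNIA minus NIA. Removing libraries far from their diet narrows the spread by construction. A pair of settings was chosen after seeing the data: without NIA 1 and NIA 4 the mNIA minus NIA median was 0.24, and with the transcript length trend removed 0 of 30 passed.

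Leaving out 1 library at a time moved the median from 0.03 to 0.20 for the 3 formulas minus chow, -0.01 to 0.17 for NIA, 0.00 to 0.25 for UW and 0.01 to 0.23 for mNIA minus chow. It ran from 0.01 to 0.20 for UW minus NIA, -0.13 to 0.10 for mNIA minus NIA and -0.04 to 0.06 for mNIA minus UW. With the replicate number as a block, 0 of 30 passed in every comparison and the medians were 0.14, 0.07, 0.16, 0.13, 0.07, -0.03 and 0.01 in the order just used. Hearts with the same number in their titles did not deviate together (mean r -0.03 over 24 pairs, -0.58 to 0.61), and 4 of 16 libraries correlated best with their own number. By the number in the library codes, which differ for mNIA, mean r was 0.08 over 18 pairs (-0.46 to 0.71), and no block by code was fitted. Depth limits NIA 4 most, at 2278250 counts.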
